A study of Bos indicus and Bos taurus with 17 samples.

Results

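The genes described here are bZIP transcription factors of the AP-1, CREB and C/EBP families in cells taken from cow's milk. The list held 10 genes, FOS, FOSB, FOSL2, JUN, JUNB, ATF3, CREB1, CEBPA, CEBPB and CEBPD, and was chosen by gene name. Of these, 7 were found among the 21631 distinct gene names of the expression table. The names CEBPA, CEBPB and CEBPD were not found, so the 3 C/EBP members are not analysed here and every value below concerns the AP-1 genes, ATF3 and CREB1. Milk cells of Kashmiri and Jersey cows were compared in early, mid and late lactation, at 15 (D15), 90 (D90) and 250 (D250) days in milk. The labels give the stages without a treatment, and the days are those of the study's methods. The sample labels gave 3 samples for each breed and day, except 2 for Jersey at D90, from cows in their 2nd or 3rd lactation. All samples of a stage carried the same month, March, July or December, so the day in milk and the season cannot be told apart. The authors captured the cells from milk on beads coated with an antibody to keratin 18, an epithelial protein, and the labels call them milk epithelial cells.

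bZIP factors bind DNA as pairs, held together by a leucine zipper beside a basic stretch that contacts the DNA. AP-1 is a pair of a FOS and a JUN family protein or of JUN proteins, and its genes are textbook immediate early genes, transcribed within minutes of a stimulus without new protein synthesis. CREB1 is activated mainly by phosphorylation, for example after a rise of cyclic AMP, and binds the promoter of FOS among others. C/EBP proteins drive the differentiation of granulocytes and also act in the mammary gland, where C/EBP beta is needed for the development of secretory epithelium and C/EBP delta rises at involution. Several of these factors are therefore made both by mammary epithelium and by white blood cells.

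Each value is the authors' Cuffdiff estimate in FPKM, a count of sequenced fragments divided by transcript length and by the size of the library. There is 1 such value for each breed on each day, 6 in all, given below in the order D15, D90, D250. Because of the division by length, levels of different genes can be set side by side. Values of single libraries were not at hand, so there is no spread between cows, no test and no p-value. The paper lists reads per library but does not tie libraries to groups. The depth behind a group value is therefore unknown, and a single cow could carry a group value. A gene was called higher or lower when its log2 ratio, with 1 FPKM added to both groups, was at least 2 in size. This is about 4-fold, and 1 of the groups also had to reach 1 FPKM. Ratios given as fold or without log2 are of plain FPKM. For low genes such as CREB1 they lie further from 1 than those with 1 FPKM added. The FPKM of all entries summed to between 533249 (Kashmiri, D250) and 1023150 (Kashmiri, D15), and members are therefore also given relative to the median of all genes. The labelled cell type was checked against 14 epithelial markers, all of which were above 0 in every group. Their summed level was 6479, 780 and 2797 FPKM in Kashmiri and 2757, 104 and 1480 FPKM in Jersey. KRT18, the gene of the protein used for capture, fell to 1.59 FPKM in Jersey at D90. In that group 2 of the 14 markers were under 1 FPKM, and the 8 neutrophil markers found summed to 5353 FPKM. By quantitative PCR on D90 samples, the paper found KRT18 and CSN2 higher in captured cells than in milk somatic cells. LSP1, HBA and CD18, the paper's markers of other cell types, were lower in the captured cells. In a bulk sample, fewer cells of a type and less RNA per cell cannot be told apart.

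FOS, the founding member of its family, had 35.8, 69.5 and 27.5 FPKM in Kashmiri cows and 291, 542 and 2332 FPKM in Jersey cows. The lowest Jersey value was thus above the highest Kashmiri value, and the level at D250 in Jersey was 84.7 times that in Kashmiri, the widest gap of the 7 genes. Among the 21631 names FOS ranked 2122, 984 and 2077 by level in Kashmiri, and 351, 227 and 43 in Jersey. FOSB, a close relative of FOS, had 6.32, 14.8 and 5.02 FPKM in Kashmiri and 8.44, 44.0 and 133 FPKM in Jersey. The breeds overlapped for FOSB, because Kashmiri at D90 was above Jersey at D15. FOSL2, which codes for the FOS-related protein FRA-2, had 45.8, 64.9 and 40.4 FPKM in Kashmiri and 86.4, 184 and 655 FPKM in Jersey, without overlap. In Kashmiri at D15 and D250 FOSL2 was the most abundant FOS family transcript, and in the other 4 groups it was FOS. FOSL1, the remaining family gene, had between 0.750 and 4.32 FPKM in all groups.

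JUN had 51.6, 48.7 and 40.3 FPKM in Kashmiri and 163, 199 and 258 FPKM in Jersey cows. JUN varied least of the 7 genes, with a ratio of 6.40 between its highest and lowest group, against 84.7 for FOS. A further entry named JUN, with a lower mean, had 29.6, 17.9 and 12.1 FPKM in Kashmiri and 85.7, 53.1 and 68.5 FPKM in Jersey. Both entries were higher in Jersey on every day, but in Jersey the main entry was higher at D250 than at D15 and the further entry lower. JUNB, a JUN relative that is a weaker activator on many targets, had 49.9, 108 and 40.9 FPKM in Kashmiri and 387, 1195 and 1774 FPKM in Jersey. The breeds did not overlap for JUN or JUNB, and the share of all genes without such overlap was not counted. JUNB was the most abundant of the 7 in 4 groups, Jersey at D15 and D90 and Kashmiri at D90 and D250. At D250 in Kashmiri it led FOSL2 and JUN by less than 1 FPKM, and with both JUN entries summed JUN led there, at 52.4 FPKM.

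ATF3, a stress-induced bZIP factor that pairs with JUN proteins and often represses, had 20.6, 47.5 and 36.5 FPKM in Kashmiri and 46.0, 137 and 248 FPKM in Jersey. Its lowest Jersey value lay just under its highest Kashmiri value. A further entry named ATF3 had 0.186, 0.473 and 0.625 FPKM in Kashmiri and 0.509, 3.45 and 13.9 FPKM in Jersey, the same order of days as the main entry in Jersey. CREB1 had the lowest level of the 7 genes in every group, with 1.61, 3.78 and 4.31 FPKM in Kashmiri and 3.92, 27.7 and 37.6 FPKM in Jersey. The breeds overlapped for CREB1, since Kashmiri at D250 was above Jersey at D15. Unlike the FOS genes and JUNB, CREB1 was not lower at D250 than at D90 in Kashmiri. Without values per library it cannot be said which neighbours in the order of levels differ beyond their spread.

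**Figure D1:**
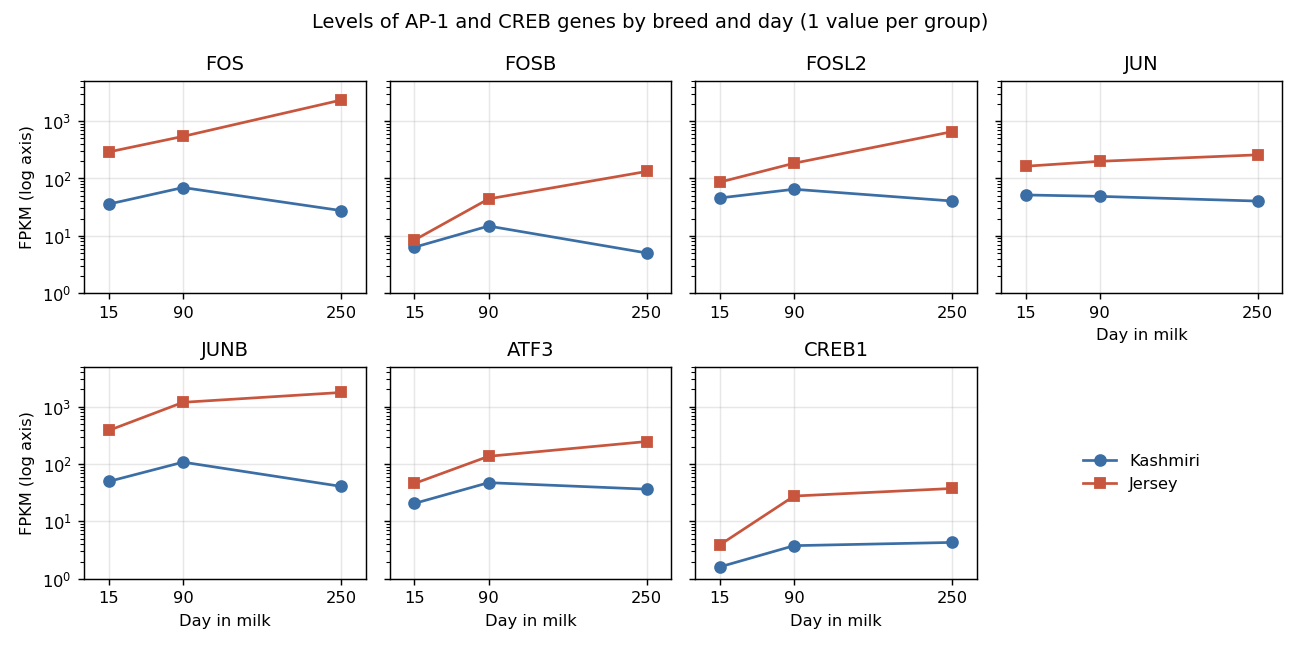
FPKM (log axis) of the 7 genes against day in milk, 1 point per breed and day and no error bars, since there is 1 value per group. The Jersey points lie above the Kashmiri points of the same day in every panel, and the gap is widest at D250, where FOS had 2332 FPKM in Jersey and 27.5 FPKM in Kashmiri.

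The breeds were compared on each day, as Jersey over Kashmiri. All 7 genes were higher in Jersey on all 3 days, and this held when the groups were rescaled to an equal FPKM sum and to an equal upper quartile. At D15, FOS (8.12-fold) and JUNB (7.76-fold) were called higher, 2 of 7, where 6.45% of all 11202 genes considered were called higher and 2.12% lower (8.50% and 1.10% after rescaling to the sum). The other 5 had ratios between 1.33-fold for FOSB and 3.17-fold for JUN. At D90, 4 of 7 were called higher, against 6.58% of all genes, with 5.17% called lower (8.74% and 3.79% after rescaling to the sum). These were JUNB (11.1-fold), FOS (7.80-fold), CREB1 (7.33-fold) and JUN (4.08-fold), of which JUN lay at the limit with a log2 ratio of 2.01, and of 1.87 after rescaling by the upper quartile. FOSL2 and ATF3 had ratios of 2.84 and 2.88.

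At D250, 7 of 7 were called higher, against 10.9% of all genes, with 1.37% called lower (6.81% and 5.0% after rescaling to the sum). The ratios were 84.7 for FOS, 43.4 for JUNB, 26.4 for FOSB, 16.2 for FOSL2, 8.73 for CREB1, 6.78 for ATF3 and 6.40 for JUN. Of the 11642 genes considered, 36 had a higher log2 ratio than FOS and 90 a higher one than JUNB. ATF3 and JUN fell short of the limit, at log2 ratios of 1.98 and 1.90, after rescaling to the sum, which left 5 of 7. The median log2 ratio of the 7 genes was 1.12, 2.01 and 3.99 at D15, D90 and D250, beside -0.13, -0.03 and -0.10 for all genes. Relative to the median of all genes the members stood at 4.09 at D250 as deposited, and at 3.98 and 4.01 under the rescaling to the sum and by the upper quartile, which moved the median of all genes to -0.73 and -0.52.

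**Figure D2:**
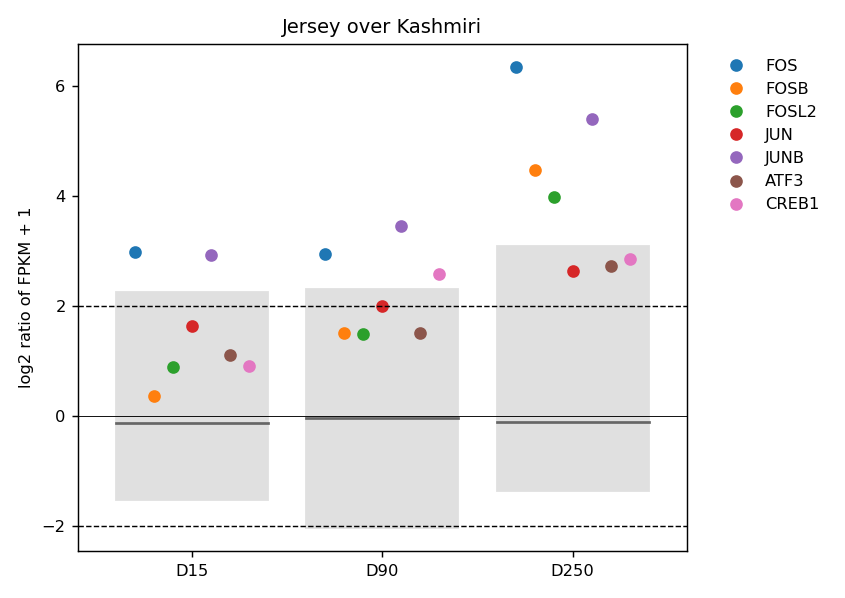
Log2 ratio of FPKM + 1, Jersey over Kashmiri, for each of the 7 genes on D15, D90 and D250. Grey boxes span the 5th to 95th percentile of all genes considered with the median as a line, and dashed lines mark the limit of 2 in either direction; all 7 points are above the upper dashed line at D250, 4 at D90 and 2 at D15.

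Within Jersey cattle the 7 genes were higher at each later day. From D15 to D90, CREB1 (7.08-fold) and FOSB (5.22-fold) were called higher, 2 of 7, where 2.98% of all genes were called higher and 3.78% lower (3.77% and 3.18% after rescaling to the sum). JUNB (3.09-fold), ATF3 (2.98-fold), FOSL2 (2.13-fold), FOS (1.86-fold) and JUN (1.22-fold) were not called. From D90 to D250, 1 of 7 was called higher, against 3.72% of all genes, with 0.466% called lower (2.10% and 0.953% after rescaling to the sum). This was FOS (4.30-fold), whose log2 ratio of 2.10 became 1.62 after rescaling to the sum and 1.84 after rescaling by the upper quartile, both short of the limit. FOSL2 (3.55-fold) and FOSB (3.01-fold) came next, and JUN (log2 ratio 0.37) and CREB1 (0.43) turned to -0.10 and -0.04 after rescaling to the sum.

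From D15 to D250 in Jersey, 6 of 7 were called higher, against 9.17% of all genes, with 3.42% called lower (7.08% and 4.89% after rescaling to the sum). FOSB was 15.7-fold, CREB1 9.59-fold, FOS 8.03-fold, FOSL2 7.58-fold, ATF3 5.39-fold and JUNB 4.58-fold higher. JUN, at 1.58-fold, was the exception, and JUNB stood at a log2 ratio of 1.95 after rescaling to the sum. The step that carried most of the difference varied with the gene. The log2 ratio of CREB1 was 2.55 from D15 to D90 and 0.43 from D90 to D250, and that of JUNB 1.62 and 0.57, whereas FOS had 0.90 and 2.10 and FOSL2 1.08 and 1.82.

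Within Kashmiri cattle none of the 7 genes was called in any of the 3 comparisons of days. Of all genes, 7.50% were called in either direction from D15 to D90, 1.98% from D90 to D250 and 4.05% from D15 to D250. As deposited, 2.34% were called higher and 5.16% lower in the first of these, 0.859% and 1.12% in the second and 1.85% and 2.20% in the last, and after rescaling to the sum 3.63% and 3.45%, 3.50% and 0.379%, and 6.29% and 0.598%. From D15 to D90 the ratios ran from 0.945 for JUN to 2.34 for FOSB and CREB1, and 6 of the 7 genes were higher at D90 (all 7 under either rescaling, with JUN at a log2 ratio of 0.22 and 0.09). From D90 to D250, 6 of 7 were lower, with FOSB, JUNB and FOS at 0.339, 0.378 and 0.396 of their level at D90. Of the 11414 genes considered, 10968 had a higher log2 ratio than FOSB in that comparison. JUN and ATF3 turned from -0.27 and -0.37 to 0.35 and 0.25 after rescaling to the sum. From D15 to D250, FOS, FOSB, FOSL2, JUN and JUNB had log2 ratios between -0.37 and -0.18, and all 5 turned positive, between 0.52 and 0.74, after rescaling to the sum, which moved the median of all genes from -0.04 to 0.75. CREB1 (2.67-fold) and ATF3 (1.77-fold) were higher at D250 than at D15 in Kashmiri as deposited and under both rescalings.

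From D90 to D250 the FOS genes, JUNB, JUN and ATF3 had opposite signs in the breeds as deposited. The log2 ratio of FOS in that step was -1.30 in Kashmiri and 2.10 in Jersey, and that of FOSB -1.39 and 1.57. FOSL2 had -0.67 and 1.82, JUNB -1.38 and 0.57, JUN -0.27 and 0.37, and ATF3 -0.37 and 0.85. After rescaling to the sum, FOSL2 in Kashmiri stood at -0.05 and JUNB in Jersey at 0.09. JUN then had 0.35 and -0.10, and ATF3 0.25 and 0.37, of the same sign. From D15 to D90 the log2 ratios of FOS were close, 0.94 in Kashmiri and 0.90 in Jersey, while those of CREB1 were 0.87 and 2.55. The comparisons share group values, and the differences between the breeds in these steps were not tested.

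**Figure D3:**
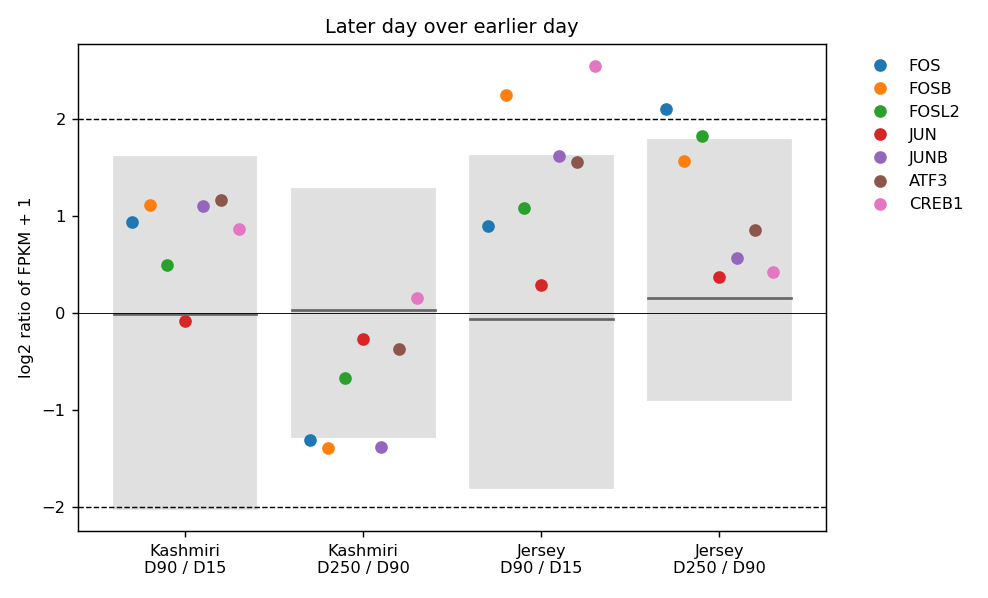
Log2 ratio of FPKM + 1 of the 7 genes for the later over the earlier day, in Kashmiri and in Jersey. Grey boxes span the 5th to 95th percentile of all genes considered with the median as a line, and dashed lines mark the limit of 2; the Kashmiri points from D90 to D250 lie at or below 0.15, and the Jersey points of the same step between 0.37 and 2.10.

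Ratios of genes within a group are untouched by how the groups are scaled. The summed FPKM of FOS, FOSB, FOSL1, FOSL2, JUN and JUNB was 190, 307 and 156 in Kashmiri and 940, 2169 and 5155 in Jersey. JUND, the remaining JUN family gene, was not found by name and is left out of these sums. JUNB over JUN was 0.968, 2.22 and 1.01 in Kashmiri and 2.37, 6.0 and 6.87 in Jersey. With both JUN entries summed, an alternative chosen after seeing the data, the ratio was 0.615, 1.62 and 0.779 in Kashmiri and 1.56, 4.74 and 5.43 in Jersey, so JUNB was behind JUN in Kashmiri at D15 and D250 and ahead in the other 4 groups. FOS made up 40.4%, 46.1% and 36.7% of the FOS family sum in Kashmiri, and 74.7%, 69.9% and 74.7% in Jersey. FOSL2 made up 51.6%, 43.1% and 54.0% in Kashmiri and 22.2%, 23.8% and 21.0% in Jersey, so that the balance of FOS and FOSL2 differed between the breeds more than between days. The sum of the FOS family over that of JUN and JUNB was 0.873, 0.960 and 0.922 in Kashmiri, and 0.707, 0.556 and 1.54 in Jersey. Only Jersey at D250 had more FOS family than JUN and JUNB transcript.

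**Figure D4:**
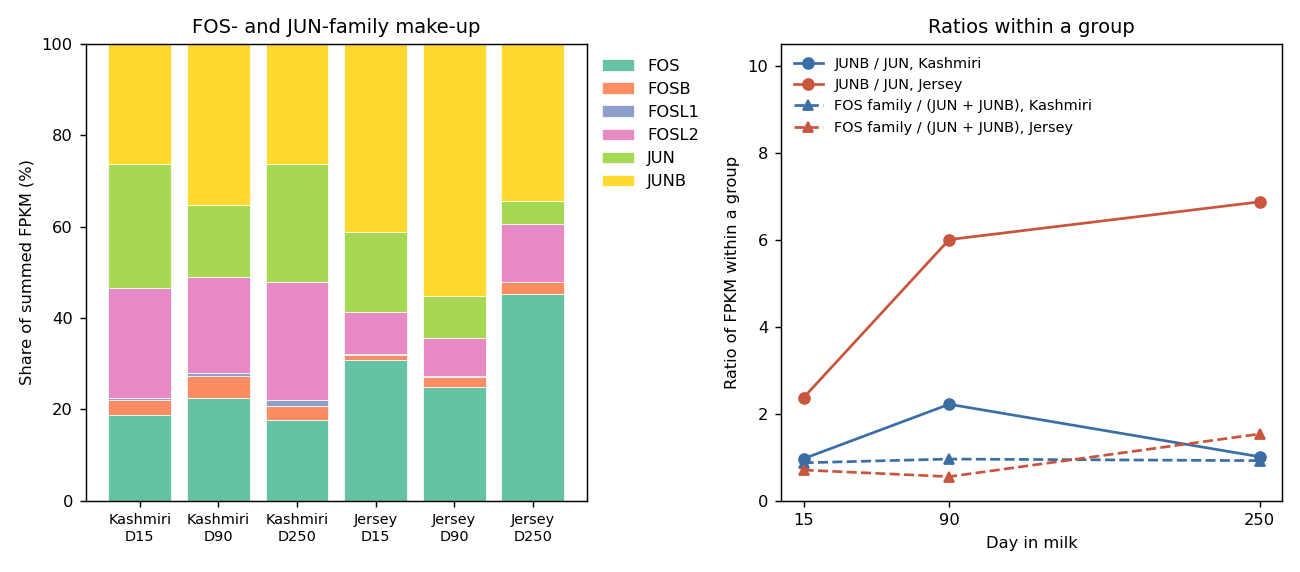
Left, share (%) of each gene in the summed FPKM of FOS, FOSB, FOSL1, FOSL2, JUN and JUNB in the 6 groups; right, FPKM of JUNB over JUN and of the FOS family over JUN plus JUNB against day in milk. JUNB over JUN stays at or below 2.22 in Kashmiri and reaches 6.87 in Jersey, and FOS holds 45.2% of the sum in Jersey at D250.

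Neutrophil markers, and less evenly those of monocytes and macrophages, were higher in Jersey, as the 7 genes were. Those of lymphocytes went the other way at D90 and D250. Of 13 neutrophil markers 8 were found, and none of these was at 0 in any group. Their summed level was 176, 493 and 611 FPKM in Kashmiri and 4765, 5353 and 13439 FPKM in Jersey, and all 7 of those considered were called higher in Jersey on each day, with a median log2 ratio of 3.73, 3.23 and 4.78. CSF3R, the receptor for granulocyte colony-stimulating factor, listed as an entry joined with an Ensembl identifier, had 53.9, 61.6 and 57.2 FPKM in Kashmiri and 310, 469 and 2549 FPKM in Jersey. The 11 monocyte and macrophage markers summed to 147, 599 and 660 FPKM in Kashmiri and 1176, 2627 and 3349 FPKM in Jersey. Of the 10 considered, 9, 4 and 2 were called higher in Jersey, beside 6.45%, 6.58% and 10.9% of all genes, and 3 were below 0 at D250. Their median log2 ratio was 2.97, 1.78 and 1.76, beside 1.12, 2.01 and 3.99 for the 7 genes. Neither the neutrophil nor the monocyte and macrophage median rose at each later day as that of the 7 genes did. The 12 T and NK cell markers summed to 479, 1775 and 401 FPKM in Kashmiri and 321, 189 and 106 FPKM in Jersey. Of these 1, 9 and 3 were called lower in Jersey, beside 2.12%, 5.17% and 1.37% of all genes, and 0 higher, with medians of -0.30, -3.56 and -1.76. The 6 B cell markers summed to 13.9, 68.9 and 28.2 FPKM in Kashmiri and 25.2, 12.3 and 7.11 FPKM in Jersey, and the 5 considered were all below 0 at D90 and D250 (medians of -1.57 and -1.45, 1 and 0 called lower). Of 6 red blood cell markers 3 were found, none above 1 FPKM in any group, with HBB, the beta globin gene, listed at 0 in 3 groups. The part of these cells in the levels of the 7 genes was not tested.

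Set against these markers, the AP-1 sum gave another order of the groups. Divided by the neutrophil marker sum it was 1.08, 0.624 and 0.255 at D15, D90 and D250 in Kashmiri and 0.197, 0.405 and 0.384 in Jersey. By this measure Jersey was below Kashmiri at D15 and D90 and above it at D250. Divided by the monocyte and macrophage marker sum, it was 1.29, 0.514 and 0.236 in Kashmiri and 0.799, 0.826 and 1.54 in Jersey. Against the epithelial marker sum it was 0.0293, 0.394 and 0.0558 in Kashmiri and 0.341, 20.8 and 3.48 in Jersey. The single genes differed in this at D250. FOS alone was 0.0450 of the neutrophil marker sum in Kashmiri and 0.174 in Jersey, and JUNB 0.0669 and 0.132. FOSB was slightly higher in Jersey, at 0.00821 and 0.00987. The rest were lower in Jersey. FOSL2 was 0.0662 and 0.0488, JUN 0.0660 and 0.0192, ATF3 0.0598 and 0.0184, and CREB1 0.00705 and 0.00280.

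The wider family was read from lists set beside the members. Of 15 other AP-1 and C/EBP family genes, 14 were found, of which 6 were called higher and 0 lower in Jersey at D250, with a median log2 ratio of 1.28, against 10.9% of all genes called higher and 1.37% lower. BATF3, a partner of JUN proteins known from dendritic cells, had 7.14, 9.65 and 5.92 FPKM in Kashmiri and 92.9, 475 and 858 FPKM in Jersey. DDIT3, the C/EBP-like factor CHOP of the stress response, had 26.9, 50.8 and 27.8 FPKM in Kashmiri and 117, 180 and 226 FPKM in Jersey. BATF, a relative of BATF3 that also pairs with JUN proteins, was called higher in Jersey at D250 as well, at a log2 ratio of 3.01. CEBPE, a C/EBP factor known from maturing granulocytes, had 0.343, 1.35 and 0.696 FPKM in Kashmiri and 6.48, 2.47 and 4.12 FPKM in Jersey. CEBPG, which lacks an activation domain, varied little, between 10.6 and 20.3 FPKM.

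Of 22 other CREB and ATF genes and coactivators of CREB, 19 were found, of which 6 were called higher and 0 lower in Jersey at D250, against 10.9% and 1.37% of all genes, with a median log2 ratio of 0.79 and 7 of the 19 below 0. From D15 to D250 in Jersey, 5 of 19 were called higher, against 9.17% of all genes. CREBBP, the histone acetyltransferase that CREB1 recruits, had 7.34, 14.0 and 8.81 FPKM in Kashmiri and 6.69, 31.5 and 60.0 FPKM in Jersey. CRTC3, a coactivator kept in the cytoplasm until it is dephosphorylated, had 1.76, 3.83 and 4.55 FPKM in Kashmiri and 4.15, 11.6 and 42.1 FPKM in Jersey. The entry joining EP300, the relative of CREBBP, with bta-mir-1281 had 4.24, 10.4 and 9.94 FPKM in Kashmiri and 5.12, 19.7 and 62.0 FPKM in Jersey. These 3 coactivator entries were, like CREB1, higher on each later day in Jersey. CRTC1, a further coactivator on the list, went the other way, with 2.23, 1.46 and 1.41 FPKM in Jersey. Of 11 other bZIP genes, 5 were called higher and 0 lower in Jersey at D250, against 10.9% and 1.37% of all genes, and 5 of the 11 were below 0. The median was 1.06, and the called genes included NFE2 (log2 ratio 6.24), NFIL3 (4.85) and BACH1 (4.01). NFE2L2, the antioxidant response factor NRF2, was called higher from D15 to D250 in Jersey with a log2 ratio of 3.28.

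Of 26 names listed for immediate early genes outside the bZIP family, 22 were found. The names not found included CCN1 and CCN2, newer names of CYR61 and CTGF, which were found. In Jersey at D250, 13 were called higher and 1 lower, against 10.9% and 1.37% of all genes. The median log2 ratio was 2.21. ELK1 and ELK4 on the list act upstream of immediate early genes. ELK1, called higher at D15 and D250, was read from an entry joined with CFP. At D15, 10 of 22 were called higher and 0 lower, and at D90 9 higher and 1 lower, beside 6.45% and 6.58% of all genes called higher. EGR1, a zinc finger factor induced together with FOS by growth factors, had 1.65, 6.58 and 11.7 FPKM in Kashmiri and 28.8, 50.1 and 369 FPKM in Jersey. IER3, ZFP36, which destabilises cytokine messages, and PPP1R15A had log2 ratios of 5.20, 4.56 and 4.37 at D250. In contrast to FOS, EGR1 was higher at D250 than at D90 in Kashmiri, at a log2 ratio of 0.74 that was not called, and either rescaling moves ratios in that comparison up (the median of all genes from 0.03 to 0.58 with the sum and to 0.13 with the upper quartile). The gene called lower at D250 was CYR61, which had 35.3 FPKM in Kashmiri and 2.49 FPKM in Jersey, and which was singled out after its values were seen.

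Of 23 kinases and phosphatases that act upstream of AP-1 and CREB, 22 were found, and 4 were called higher and 0 lower in Jersey at D250, against 10.9% and 1.37% of all genes. The median was 0.31, and the called genes were DUSP1, DUSP2 and DUSP6, which code for phosphatases that switch MAP kinases off, and the entry joining RPS6KA4 with CCDC88B. DUSP1, itself an immediate early gene, had 26.0, 49.9 and 30.5 FPKM in Kashmiri and 213, 660.5 and 3290 FPKM in Jersey. Of 9 genes of the STAT3 pathway that act with C/EBP delta at involution, 7 were considered at D250, of which 4 were called higher in Jersey and 0 lower, against 10.9% and 1.37% of all genes, with a median of 2.86. SOCS3, the feedback inhibitor of STAT3, had 12.2, 16.7 and 9.79 FPKM in Kashmiri and 126, 110 and 874 FPKM in Jersey. OSM, a cytokine that activates STAT3, had 7.68, 7.34 and 9.41 FPKM in Kashmiri and 97.8, 142 and 1145 FPKM in Jersey in the higher of its 2 entries. IGFBP5, a marker of the involuting gland, was under 1 FPKM in all groups and listed at 0 in Jersey at D90 and D250.

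**Figure D5:**
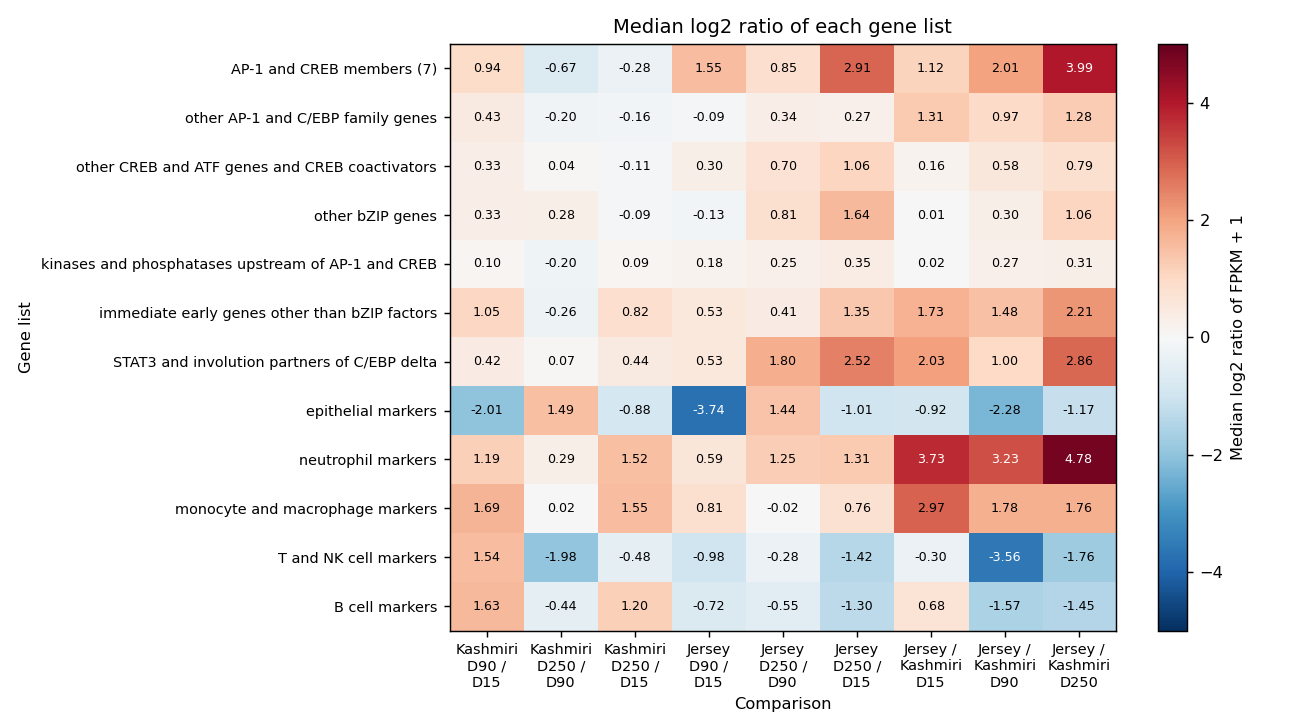
Median log2 ratio of FPKM + 1 of each gene list in the 9 comparisons, in colour and as a number, over the genes with at least 1 FPKM in either group. The 7 AP-1 and CREB genes reach 3.99 for Jersey over Kashmiri at D250, beside 4.78 for the neutrophil markers and -1.17 for the epithelial markers.

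For each of the 7 genes the entries with the most similar profile over the 6 groups were sought, by the root mean square difference of the centred log2 values, among 5914 named entries with at least 1 FPKM in every group and a mean of at least 5 FPKM. Between 0 and 32 entries lay within 0.3 of a gene, and nothing on shared control follows from 6 group values. FOS was nearest to ITM2C (difference 0.34) and BCL3 (0.36), and none lay within 0.3 of FOS or JUNB. JUNB was nearest to BCL2A1 (0.32), an inhibitor of apoptosis known from leukocytes, and SNN (0.34). FOSB was nearest to BTG1 (0.22) and to the entry joining CDS2 with snoU6-53 (0.33), and FOSL2 to AOAH (0.11), which codes for a leukocyte enzyme that inactivates lipopolysaccharide, and EGLN3 (0.21). ATF3 was nearest to PLAGL2 (0.08) and KDM3A (0.14), CREB1 to BTRC (0.16) and ABHD13 (0.20), and JUN to HERC5 (0.20) and TMEM185B (0.20). AOAH had 1.37, 3.05 and 1.39 FPKM in Kashmiri and 3.43, 8.89 and 32.0 FPKM in Jersey. Like FOSL2, it was highest at D90 in Kashmiri and higher on each later day in Jersey. The log2 values had 1 FPKM added, which shrinks the differences of low entries such as AOAH and PLAGL2. A close match is therefore not a match of plain FPKM ratios.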

How the data were processed

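The members and gene lists were chosen with earlier results of these data known. Per the paper's methods, the authors used Trimmomatic to trim the reads, TopHat with Bowtie to align them (UMD3.1, a cattle genome build), and Cufflinks and Cuffdiff to assemble and quantify genes. The deposited values are the authors' FPKM, 1 pooled column per breed and day ("Local" being Kashmiri), with no count or value per library. The labels list 17 samples, against 18 libraries in the paper. Of 61264 entries, 25121 carried a name. Where several entries shared a name, that of the highest mean stood for it, and a joined name was searched by its parts, whose values cannot be separated. A member was called at an absolute log2 ratio of 2 (pseudocount of 1 FPKM, at least 1 FPKM in either group). Named besides the members were up to 4 genes per list with the largest ratio and at least 5 FPKM, and the 2 most similar entries, and 1 gene that the rule named is not reported here. CEBPE, CEBPG, FOSL1, IGFBP5, HBB, HLF, TEF, DBP, ATF5, NR4A2, CYR61, CRTC1, CTGF, ELK1 and ELK4 were added after their values were seen. Alternatives were a pseudocount of 0.1, a limit of 1, no filter, rescaling to the sum of all entries or by the upper quartile, and summed entries (for the ratios with JUN added after seeing the data). The calls were tested on simulated data, with planted changes far above the limit and little noise. This checks the code and says nothing of the spread between cows or of low genes. Tables were made with pandas 2.3.3 and numpy 2.4.6 under Python 3.11.15, and plots with matplotlib 3.10.9. No coordinates or sequences are given, since the gene table at hand is of another assembly.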

Additional observations from a re-analysis of the deposited data

Results flagged for a closer look

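3 genes moved by at least 1.5 times in opposite directions in the breeds from D90 to D250, lower in Kashmiri and higher in Jersey. The log2 change in Jersey minus that in Kashmiri was 3.41 for FOS, 2.96 for FOSB and 2.49 for FOSL2. The difference was not tested, because each breed has 1 value per day. JUNB went the same ways, at -1.38 in Kashmiri and 0.57 in Jersey, just short of 1.5 times in Jersey. In the same step the neutrophil marker sum went from 493 to 611 FPKM in Kashmiri and from 5353 to 13439 FPKM in Jersey, and its part in the difference was not tested. After rescaling to the sum, FOSL2 in Kashmiri stood at -0.05 and JUNB in Jersey at 0.09.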

How the results depend on the processing

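With a limit of 1 in place of 2, more members were called. In Kashmiri 3 of 7 were higher from D15 to D90, 3 lower from D90 to D250 and 1 higher from D15 to D250. Of all genes, 14.7%, 8.77% and 11.2% were called in those directions. In Jersey 5 were called higher from D15 to D90 and 3 from D90 to D250, beside 12.8% and 16.6% of all genes. Between the breeds 4 were called higher in Jersey at D15 and 7 at D90, beside 15.9% and 17.0% of all genes. From D90 to D250 in Jersey, 0 were called with FPKM rescaled to the sum or by the upper quartile, because FOS fell under the limit. The other counts stayed within 1.5 times under every alternative run. Of 252 log2 ratios recomputed under the pseudocount of 0.1, both rescalings and the summed entries, 233 stayed within a factor of 1.5, and the 19 others moved under the rescaling to the sum. 12 changed sign, none of them a called value. Summing both JUN entries, chosen after seeing the data, moved JUNB over JUN by more than 1.5 times in both breeds at D15. No paired analysis was possible because the columns hold 1 value per group and carry no replicate number, and for the same reason no replicate could be left out. The paper's reads per library are not tied to groups, so the depth behind each FPKM is unknown and no limit of detection was computed.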

Other observations

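Some bZIP genes shared with the epithelial markers a lowest level at D90 in both breeds, unlike the 7 genes. CREB3L1, a membrane-bound factor of the secretory pathway, had 95.2, 25.5 and 50.7 FPKM in Kashmiri and 16.8, 1.81 and 19.6 FPKM in Jersey cows, in the order D15, D90, D250. It was lowest at D90 in both breeds and lower in Jersey on every day. ATF5 (62.9, 8.48 and 23.2 FPKM in Kashmiri, and 21.0, 5.82 and 12.6 FPKM in Jersey) and the clock output genes HLF (20.5, 3.47 and 10.7, and 3.34, 0.404 and 4.74), TEF (18.2, 4.49 and 6.22, and 4.95, 1.20 and 2.85) and DBP (25.3, 6.88 and 9.78, and 15.4, 4.89 and 7.49) were likewise lowest at D90 in both breeds. These 4 were singled out after their values were seen.

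NR4A2, an immediate early nuclear receptor, went against FOS between the breeds, with 12.5, 30.8 and 10.02 FPKM in Kashmiri and 4.19, 5.67 and 5.24 FPKM in Jersey, and it was singled out after its values were seen. Its highest level was in Kashmiri at D90, the group in which the T and NK cell markers were also highest, at 1775 FPKM.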
